A study of Mus musculus with 42 samples.

Results

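The collagen chain genes were taken as every gene on the array whose symbol reads Col, a number, a, a number, as in Col1a1. The array held 43 of them on 87 probes, out of 21186 genes with a symbol on 34891 probes. By class, 11 were fibrillar chains, 6 were basement membrane chains of type IV collagen, and 26 belonged to other classes, namely the beaded filament, fibril-associated, hexagonal network, anchoring fibril, transmembrane and multiplexin collagens. The rule used names and no measured value.

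RNA of the aorta and of skeletal muscle was read on 42 single-colour arrays, 3 mice in each of 7 groups and both tissues. Every animal was male and given a daily gavage for 8 weeks. The methods give an age of 18 to 20 weeks and do not state the age when tissue was taken. In the healthy group (G), C57BL/6 mice received saline. The diabetic group (A) was of KK/Ay mice, a strain that becomes diabetic spontaneously, also on saline. In the diabetic macroangiopathy group (C), KK/Ay mice were fed a high-fat diet, drank water with L-NAME, an inhibitor of nitric oxide synthesis, for 8 weeks, and received saline by gavage. The same model was given SHENQI compound (B), its yangyinyiqi part (D), its huoxue part (E), or rosiglitazone (F), a PPARγ agonist used against diabetes. The healthy mice were of another strain than all the others, so strain and diabetes cannot be told apart in any comparison with them. Nothing in the labels states whether the same number in both tissues marks the same mouse.

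Collagens are secreted proteins of the extracellular matrix in which 3 chains wind into a triple helix. Glycine recurs along the helix in a fixed Gly-X-Y repeat, since no larger side chain has room at its centre. Fibrillar chains (types I, II, III, V, XI, XXIV and XXVII) build the banded fibrils that bear load in the adventitia and media of an artery and in the connective tissue of muscle. Type IV chains form the sheet of every basement membrane, around smooth muscle cells, muscle fibres and below endothelium. The remaining classes link fibrils, anchor cells or span the cell membrane.

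The repeat can be read in the probes themselves, and the probes whose sequence shows it from end to end are given because they name what was hybridised. It ran through 3 of the 87 probes, 1 each of Col11a2 and Col5a1, minor chains that limit fibril width, and of Col5a3, a gene to which the muscle results return. Each is 60 bases long and spans exon borders, so that its genomic span on mm9 is longer. The coding strand is shown 5′ to 3′, with the glycine codons in capitals.
Col11a2 probe, chr17:34189287-34189453, plus strand: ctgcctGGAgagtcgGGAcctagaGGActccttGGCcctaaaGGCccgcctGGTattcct
Col5a1 probe, chr2:27842243-27844666, plus strand: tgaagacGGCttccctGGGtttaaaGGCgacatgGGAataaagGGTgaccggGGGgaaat
Col5a3 probe, chr9:20590066-20590795, minus strand: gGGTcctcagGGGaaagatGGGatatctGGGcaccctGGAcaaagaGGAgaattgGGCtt
Glycine codons numbered 6 in the Col11a2 probe, 6 in that of Col5a1 and 7 in that of Col5a3. 

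All values are log2 intensities after background correction and quantile normalization, so a difference of 1 is 2-fold. Levels were not set against each other between genes, since probes differ in brightness. A gene was tested in a tissue where at least 1 of its probes was flagged well above background throughout the 3 arrays of some group, and called where the adjusted p of limma's moderated test, over all genes tested, was under 0.05. Among the collagens 37 were tested in aorta and 35 in muscle, with 33 tested in both and 4 in neither. The untested 4 were Col10a1, the collagen of hypertrophic cartilage, Col17a1 of hemidesmosomes, and Col6a6 and Col9a3. Col10a1 was well above background on 0 of the 42 arrays. The share of all probes well above background ran from 62.9% to 77.6% across aorta arrays and from 53.8% to 70% across muscle arrays. The number of arrays, 3 a group, limits the precision of every comparison below, and since the labels name no separate cultures or pools the p-values measure the spread between these samples.

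A pair of healthy arrays stood apart in collagen level, and the main collagen results that use them are given with and without them. Some results, the marker lists among them, are given with all arrays only. On healthy aorta 1 the 37 tested collagens lay on average 1.10 below each gene's median over the 21 aorta arrays (a mean deviation of -1.10), and 23 of 37 had their lowest value there. This array also held the lowest smooth muscle markers, with a mean of 9.66 over 6 genes against 12.35 or more elsewhere. Myh11, the myosin of smooth muscle, read 9.15 there and 12.64 to 15.43 on the other aorta arrays. On healthy muscle 3 the mean deviation was -0.45 over 35 collagens, 16 of which were lowest there, and the smooth muscle mean was 9.34. The macrophage gene Mrc1 read 10.13 on that array and 7.51 to 8.75 on the other muscle arrays, and the tendon gene Comp read 8.98 against 10.92 to 13.10. Tendon genes did not move alike there, since Scx, a transcription factor of tendon cells, was highest on that array, as given at the end. The slide of healthy muscle 3 otherwise held aorta arrays and was scanned on the day of aorta slides. How far tissue make-up or slide accounts for these low values was not tested, and in bulk tissue fewer cells of a type and less RNA per cell cannot be told apart. The tissue labels held in general, with Acta1 of skeletal muscle between 17.30 and 17.71 in muscle, but the aorta arrays also carried Acta1 between 10.62 and 16.91 and Ucp1, the uncoupling protein of brown fat, between 14.98 and 17.51.

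**Figure D1:**
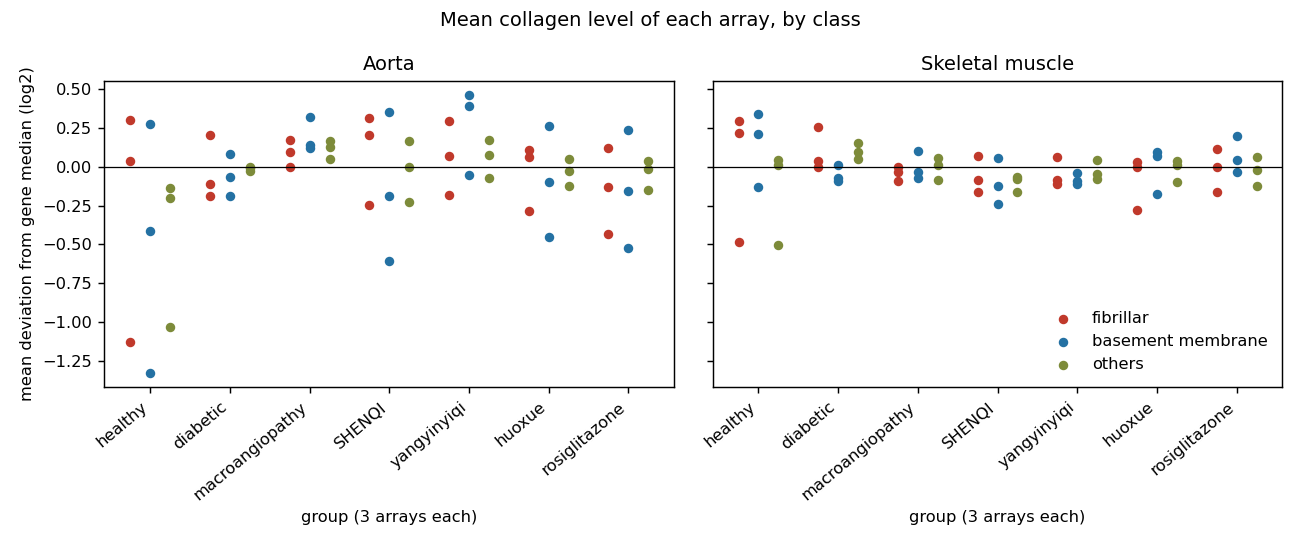
Mean deviation of the collagen genes of each class from each gene's median over the 21 arrays of a tissue (log2 units, y axis) for every array (x axis, by group), 1 panel a tissue. Healthy aorta 1 lies lowest of all, at -1.13 for fibrillar, -1.33 for basement membrane and -1.03 for other chains, and healthy muscle 3 is the lowest muscle array for fibrillar and other chains.

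Aorta and muscle differed in most collagens, as they did in most genes, and every basement membrane chain tested was higher in aorta by the mean over its probes. Averaged over the 7 groups, 32 of 39 collagens tested in either tissue were called, 20 higher and 12 lower in aorta, against 76.9% of all genes tested, 40.4% higher and 36.5% lower. All 6 type IV chains were higher in aorta, with a median of 1.01, against a median over all genes of 0.03. That count and median are of means over probes, and single probes of Col4a4 and Col4a6 showed almost no difference, as given below. They also include Col4a5, which passed the filter through aorta alone, so that its direction was favoured by the filter. Of 11 fibrillar chains 5 were higher and 3 lower, and the other classes split into 9 higher and 9 lower of 22. The median over all 39 was 0.17.

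Col18a1, whose product sits in basement membranes and releases endostatin from its end, differed most. It read 9.30 to 14.39 in aorta with a median of 13.62, and 8.70 to 9.63 in muscle with a median of 9.16. The only aorta array within the muscle range was healthy aorta 1. The difference was 4.07 (SE 0.23, 21 arrays a tissue, adjusted p = 1.89e-16), 16.8-fold, and its probes gave 4.11 and 4.02.

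Among genes higher in aorta Col4a5 and Col4a6 came next. They code for the chains of the type IV network found around smooth muscle and in some epithelia. Col4a5 read 5.16 to 8.40 in aorta and 4.77 to 6.23 in muscle, a difference of 1.97 (SE 0.18, adjusted p = 2.4e-11), and its probe was well above background on 17 aorta arrays and 1 muscle array, so that the size of the difference rests on muscle values near background. Col4a6 read 6.43 to 8.99 in aorta and 6.06 to 6.90 in muscle, 1.82 higher in aorta (SE 0.13, adjusted p = 3.99e-14). The Col4a6 probes did not move alike. From 5′ to 3′ along the transcript they gave 0.02 (chrX:137601433-137601491, mm9), 1.42 (chrX:137600816-137600875) and 4.02 (chrX:137599990-137600049), so the mean over probes rests on the probes nearer the end of the transcript. Col4a1 and Col4a2, the chains of the common network, were 1.34 (SE 0.14) and 0.68 (SE 0.14) higher in aorta, with adjusted p of 3.87e-10 and 7e-05. Col4a4 at 0.45 and Col4a3 at 0.16, chains known from kidney and lung, had the smallest differences in the class. The Col4a4 probes gave -0.03 on the brighter, well above background on all 21 arrays of each tissue, and 0.925 on the dimmer. The Col4a4 difference thus rests on the dimmer probe.

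The promoters of these genes are shown because Col4a5 and Col4a6 lie head to head and moved the same way between tissues, and because Col18a1 had the largest difference. Each is the 250 bases before a RefSeq start on GRCm38.p6, 5′ to 3′ on the gene's strand, with CCAAT and GGGCGG on either strand in capitals. The starts of Col4a5 and Col4a6 are 1343 bases apart on opposite strands of chromosome X. Col18a1 has more than 1 start, and those with an entry are given.
Col18a1, chr10:77113706-77113955, minus strand: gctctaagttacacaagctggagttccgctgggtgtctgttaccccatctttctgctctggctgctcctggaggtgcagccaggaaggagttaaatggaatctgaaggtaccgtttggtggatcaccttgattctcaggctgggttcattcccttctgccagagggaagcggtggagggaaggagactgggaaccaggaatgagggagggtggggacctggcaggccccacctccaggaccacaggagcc
Col18a1, chr10:77166531-77166780, minus strand: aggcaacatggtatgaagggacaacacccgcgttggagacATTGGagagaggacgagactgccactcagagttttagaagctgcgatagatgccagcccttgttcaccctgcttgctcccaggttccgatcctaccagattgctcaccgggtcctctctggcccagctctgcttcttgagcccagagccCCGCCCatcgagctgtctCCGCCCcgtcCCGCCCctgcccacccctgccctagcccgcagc
Col4a5, chrX:141475169-141475418, plus strand: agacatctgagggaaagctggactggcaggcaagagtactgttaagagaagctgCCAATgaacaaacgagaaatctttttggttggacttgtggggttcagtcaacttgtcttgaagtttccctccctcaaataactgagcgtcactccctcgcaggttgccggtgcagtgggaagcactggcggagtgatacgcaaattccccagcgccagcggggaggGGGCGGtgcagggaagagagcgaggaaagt
Col4a6, chrX:141474077-141474326, minus strand: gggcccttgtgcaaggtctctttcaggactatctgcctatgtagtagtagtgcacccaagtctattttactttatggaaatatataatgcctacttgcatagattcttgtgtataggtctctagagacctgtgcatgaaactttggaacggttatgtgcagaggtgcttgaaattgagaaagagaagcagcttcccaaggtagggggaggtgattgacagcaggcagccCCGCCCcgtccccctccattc
CCAAT occurred in the second Col18a1 window and in Col4a5, and GGGCGG in those 2 and in Col4a6, and no matches overlapped. Over 32851 promoters of this length CCAAT stood in 33.8% and GGGCGG in 32.7%, and 13 and 22 of the 38 collagen promoters held them. TATAAA was in none of the windows shown, in 5 of the 38 and in 12.4% of all. A match is a description of the letters and not of binding. Of the 43 genes 35 had an entry.

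Among fibrillar chains the largest differences were those of Col27a1, a chain of cartilage fibrils, at 1.61 higher in aorta (SE 0.11, adjusted p = 3.79e-14), and Col24a1, known from bone, at 1.61 lower in aorta (a difference of -1.61, SE 0.07, adjusted p = 3.98e-19). Col27a1 read 6.76 to 8.44 in aorta and 5.67 to 6.29 in muscle, with no overlap. Col24a1 read 4.78 to 6.16 in aorta, where 3 of 21 arrays were well above background, and 5.93 to 7.23 in muscle. Its size thus rests on aorta values near background, and its probes gave -0.58 and -2.64. Col5a1 and Col5a2, which nucleate type I fibrils, were 0.97 and 0.75 higher in aorta. The chains of the bulk fibrils differed less, by 0.57 in Col1a2 (SE 0.11), 0.56 in Col3a1 (SE 0.13) and 0.16 in Col1a1 (SE 0.21, adjusted p = 0.496), which was not called. Col11a1 and Col11a2 were lower in aorta by 0.98 and 0.89 (differences of -0.98 and -0.89).

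Among the other classes Col22a1 was the most muscle-biased. This fibril-associated collagen is known from the myotendinous junction. It read 5.77 to 6.39 in aorta and 7.58 to 10.30 in muscle, without overlap, a difference of -3.59 (SE 0.12, adjusted p = 1.55e-22) or 12-fold, with probes at -2.53 and -4.64. Col7a1, the anchoring fibril chain, differed by -1.84 (SE 0.18), Col8a2, of hexagonal networks, by -1.41 (SE 0.10) and the fibril-associated Col20a1 by -1.37 (SE 0.07). In the other direction Col14a1, a fibril-associated collagen of soft tissue, was 1.13 higher in aorta (SE 0.10) and Col15a1, of basement membrane borders, 0.84 (SE 0.13). The beaded filament chains Col6a2 and Col6a3 were 0.81 and 0.39 higher, while Col6a1 at 0.17 (SE 0.14, adjusted p = 0.269) was not called.

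The 21 aorta and 21 muscle arrays did not overlap at all in 3 collagens, higher in aorta in Col27a1 and lower in Col20a1 and Col22a1, against 3.02% of all genes higher and 6.59% lower without overlap. Without the 2 healthy arrays named above 10 of 39 did not overlap, 4 higher in aorta and 6 lower, against 14.7% of all genes. Adding were Col18a1, Col4a6 and Col5a1 on the aorta side and Col11a1, Col11a2, Col8a2 and Col24a1 on the muscle side. With scan day as a block 18 collagens were called, where 24.7% of all genes were, and with the stricter filter on dim probes 20 of 25, where 79.5% of all genes were. Healthy muscle 3 was the only muscle array that shared a slide or scan day with aorta arrays. The fit with scan day thus rests on that array and cannot separate tissue from scan day.

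**Figure D2:**
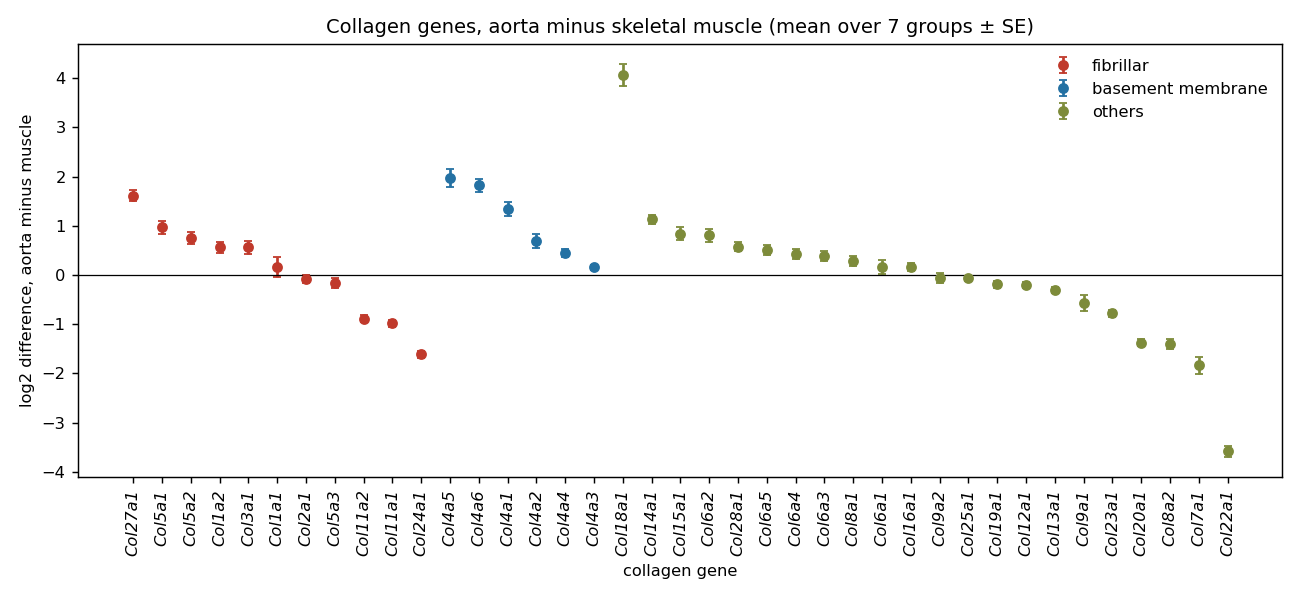
Difference in log2 intensity, aorta minus skeletal muscle, of the 39 tested collagen genes (x axis, ordered within class), as the mean over 7 groups with limma's standard error. All 6 basement membrane genes lie above 0 as means over their probes, Col18a1 is highest at 4.07 and Col22a1 lowest at -3.59.

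In the aorta, collagens lay higher in both untreated KK/Ay groups than in the healthy group, but few passed the test and the shift rested largely on healthy aorta 1. The comparisons share the healthy arrays. Between the diabetic and healthy groups 0 of 37 collagens were called, where 3.43% of all genes were, and 8 of 37 had an unadjusted p under 0.05, all higher, where 18.7% of all genes had one and 10.7% were higher with one. The median difference was 0.33, against 0.02 over all genes, with 30 of 37 above 0. Without healthy aorta 1 it was 0.13 with 24 of 37 above 0, and none of the 8 was left: the only 2 at an unadjusted p under 0.05 were Col5a3 at -0.91 and Col20a1 at -0.62. Within the slide of healthy 1 and 3 the median was 0.64, and within the scan day of healthy 2 it was -0.07.

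The lowest p was that of Col14a1, which read 6.12, 7.68 and 7.33 in healthy aorta and 7.76, 8.12 and 8.19 in diabetic aorta. The diabetic arrays lay above all healthy arrays. The difference of 0.98 (SE 0.33, adjusted p = 0.119) was not called, and it was 0.52 without healthy aorta 1.

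In the macroangiopathy group against the healthy group 1 of 37 collagens was called, higher, against 6.37% of all genes and 3.26% called higher. An unadjusted p under 0.05 was reached by 14, all higher, against 24.3% of all genes, or 13.9% in that direction. The called gene was Col14a1, which read 8.15, 8.19 and 8.28 in the macroangiopathy aortas, above every healthy one. Its difference was 1.16 (SE 0.33, n = 3 a group, adjusted p = 0.0472 by limma). Without healthy aorta 1 it was 0.70 with an adjusted p of 0.179, and no collagen was called. The median over 37 collagens was 0.40 with 32 above 0, and 0.13 with 26 above 0 without that array. Within the scan day that healthy 2 shared with the macroangiopathy arrays it was 0.16. Groups did not overlap in 10 of 37, all higher, where 16.5% of all genes were higher without overlap.

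Col18a1 had the widest difference. It read 9.30, 13.31 and 11.75 in healthy aorta, 13.77, 12.43 and 13.28 in diabetic aorta and 14.20, 14.05 and 14.19 in macroangiopathy aorta. The macroangiopathy arrays lay close together above all healthy ones, which themselves spread over 4 units. All of the macroangiopathy aorta arrays lay on slide 6, which held no healthy or diabetic array, so slide and group cannot be told apart. The difference to healthy was 2.69 (SE 0.81, adjusted p = 0.056) and 1.61 without healthy aorta 1 (SE 0.70, adjusted p = 0.22). Col4a5 followed a like order, with 5.16, 7.55 and 5.86 in healthy and 7.81, 8.08 and 8.11 in macroangiopathy aorta, a difference of 1.81 (SE 0.60, adjusted p = 0.08). Without healthy aorta 1 it was 1.29 (adjusted p = 0.278). The lowest aorta values of Col4a5 were those of slide 1, healthy 1 and 3, diabetic 1 at 6.0 and SHENQI 1 at 6.13. The other aorta arrays read 6.96 to 8.40. How far slide accounts for the difference was not tested. Col4a6 differed by 1.25 (SE 0.45, adjusted p = 0.102), and by 0.77 without healthy aorta 1 (adjusted p = 0.365).

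The major network chains did not show that pattern. Col4a1 read 10.60, 12.21 and 12.23 in healthy aorta and 11.91, 11.55 and 11.66 in macroangiopathy aorta, and the difference of 0.03 (SE 0.45) went to -0.51 without healthy aorta 1. Col4a2 differed by 0.05 (SE 0.49) and by -0.63 without that array. The macroangiopathy values of Col4a1 lay between healthy 1 and the other healthy arrays.

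Fibrillar chains were read the same way. Col1a1, the main chain of type I collagen, read 7.73, 10.68 and 11.17 in healthy, 11.17, 9.92 and 9.83 in diabetic and 10.69, 10.56 and 10.51 in macroangiopathy aorta. The low value of healthy aorta 1 set the sign of its difference, which was 0.73 (SE 0.63, adjusted p = 0.511) for macroangiopathy with that array and -0.34 (SE 0.40) without it. Col3a1, which forms the thin fibrils of the vessel wall, gave 0.42 (SE 0.38) with and -0.20 without that array. Col1a2, the partner chain of Col1a1, read 9.14, 10.76 and 10.58 in healthy and 11.17, 11.28 and 11.31 in macroangiopathy aorta, and the groups did not overlap. Its difference was 1.09 (SE 0.34, adjusted p = 0.0648) and 0.58 without healthy aorta 1 (adjusted p = 0.243). Col1a1 and Col1a2, whose chains make up the same trimer, gave differences of opposite sign once that array was left out, and neither was called.

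Smooth muscle markers also differed between these groups, with healthy aorta 1 lowest. Their mean was 9.66 on that array and 13.39 and 12.40 on healthy aorta 2 and 3. Their summed level, on the log2 scale, ran from 13.12 to 16.80 in healthy, 16.67 to 17.58 in diabetic and 17.46 to 17.94 in macroangiopathy aorta, and 2 of 6 were called higher in macroangiopathy. Fibroblast markers were above 0 in 6 of 6, with 1 called. Among all genes 3.26% were called higher in macroangiopathy. These marker counts include healthy aorta 1. The part of both marker lists in the result was not tested.

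**Figure D3:**
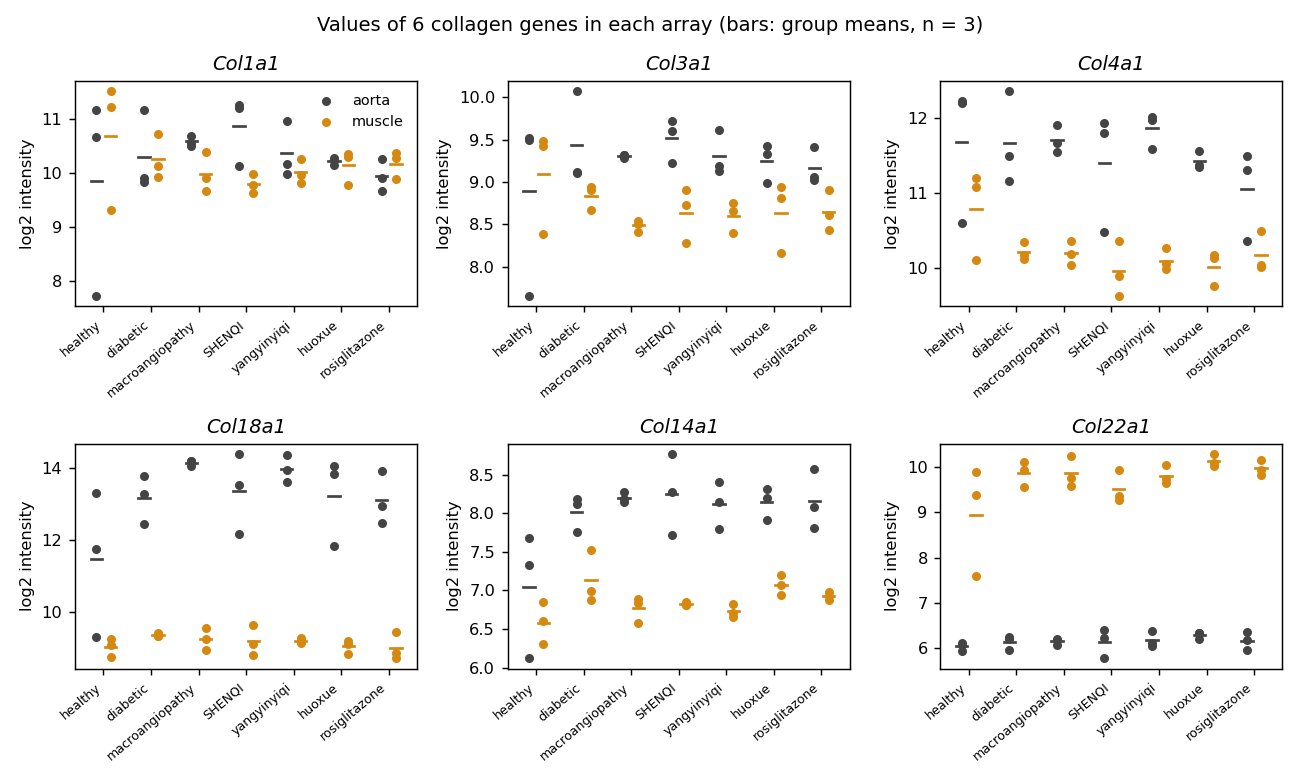
Log2 intensity (y axis) of Col1a1, Col3a1, Col4a1, Col18a1, Col14a1 and Col22a1 on each of the 42 arrays by group (x axis), aorta in grey and muscle in orange, with bars at the group means of 3 arrays. Healthy aorta 1 is the low grey point of Col1a1 (7.73), Col18a1 (9.30) and Col14a1 (6.12), and Col22a1 separates the tissues on every array.

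In skeletal muscle Col23a1, Col24a1 and Col8a1 were called higher, and Col5a2 lower, in both untreated KK/Ay groups than in the healthy group, while the share of collagens called was no larger than that of all genes. The comparisons share the healthy arrays, as in aorta. In diabetic against healthy muscle 8 of 35 were called, 7 higher and 1 lower, a share of the size of the 26.5% called among all genes, 15.6% higher and 10.8% lower. At an unadjusted p under 0.05 there were 11 of 35, against 38.1% of all genes. The median was 0.21, against 0.03 over all genes.

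Of the 7 higher genes 1, Col24a1, is fibrillar and 6 belong to the other classes. Col23a1, a transmembrane collagen, read 6.21, 6.39 and 6.78 in healthy muscle and 7.19, 7.49 and 7.27 in diabetic muscle. It rose by 0.86 (SE 0.18, adjusted p = 0.002), and the groups did not overlap. Col24a1 read 6.45, 6.55 and 5.93 in healthy and 6.88, 7.18 and 7.14 in diabetic muscle, again without overlap. It rose by 0.76 (SE 0.17, adjusted p = 0.00306), with 1.24 on its brighter probe, well above background in all 21 muscle samples, and 0.28 on the other, so in 2. Col14a1 read 6.85, 6.60 and 6.30 against 7.00, 7.52 and 6.88, higher by 0.55 (SE 0.15, adjusted p = 0.0127), with no overlap. 

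Col8a2 read 7.56, 7.99 and 6.42 in healthy and 8.28, 8.09 and 8.49 in diabetic muscle, and rose by 0.96 (SE 0.27, adjusted p = 0.0151), with healthy muscle 3 far below the other healthy arrays. Col20a1 read 7.27, 7.39 and 7.30 against 7.78, 7.51 and 7.85, and rose by 0.39 (SE 0.13, adjusted p = 0.0277). In both genes the diabetic arrays lay above all healthy arrays. Col8a1, whose product forms networks below endothelium, rose by 0.45 (adjusted p = 0.0356) and Col13a1, a membrane collagen of the neuromuscular junction, by 0.49 (adjusted p = 0.0364).

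Col5a2 was the only called gene to fall. It read 9.70, 9.63 and 8.86 in healthy and 8.69, 8.71 and 8.89 in diabetic muscle, a difference of -0.64 (SE 0.20, adjusted p = 0.0268). Diabetic 3 lay just above healthy 3, so the groups overlapped.

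Without healthy muscle 3 more of the calls were of lower genes. The median went from 0.21 to -0.01, and 8 collagens were called, 4 higher and 4 lower, against 30.7% of all genes. Called in both fits were 5 genes, Col20a1, Col23a1, Col24a1, Col5a2 and Col8a2. The lower genes were then Col5a2 at -0.90 (adjusted p = 0.00108), Col1a1 at -1.11 (adjusted p = 0.0034), Col4a1 at -0.93 (adjusted p = 0.00189) and Col3a1 at -0.62 (adjusted p = 0.0352). Col14a1, Col8a1 and Col13a1 were no longer called, at adjusted p of 0.0507, 0.151 and 0.112.

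In macroangiopathy against healthy muscle 5 of 35 collagens were called, 4 higher and 1 lower, against 24.9% of all genes, 14.7% higher and 10.2% lower. An unadjusted p under 0.05 was reached by 10, against 36.7% of all genes. Col23a1 read 7.23, 7.16 and 7.02, above every healthy value given above, and rose by 0.68 (SE 0.18, adjusted p = 0.01). Col24a1 read 7.15, 7.01 and 6.57, also above all healthy arrays, and rose by 0.60 (SE 0.17, adjusted p = 0.0139). Col5a2 read 8.56, 8.83 and 8.61, below all healthy arrays, and fell by 0.73 (a difference of -0.73, SE 0.20, adjusted p = 0.0132).

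Col8a1 read 8.41, 8.66 and 7.97 in healthy and 8.73, 8.71 and 9.01 in macroangiopathy muscle and rose by 0.47 (SE 0.15, adjusted p = 0.0307). Its probes gave 0.45 and 0.49. Col2a1, the chain of cartilage fibrils, read 5.84, 6.11 and 5.63 against 6.57, 6.69 and 6.23, and was called at 0.63 (SE 0.18, adjusted p = 0.0183). Its probes disagreed, at -0.02 on the probe detected in all 21 muscle samples and 1.59 on the probe so on 11, and the call went with the dimmer probe.

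Without healthy muscle 3 the count was 8, with 1 higher and 7 lower, against 30.1% of all genes, and 2 genes, Col23a1 and Col5a2, were called in both fits. Col1a1 was then lower by 1.39 (a difference of -1.39, SE 0.25, adjusted p = 0.000702). It read 11.23, 11.52 and 9.32 in healthy, 10.14, 9.93 and 10.73 in diabetic and 9.91, 9.66 and 10.39 in macroangiopathy muscle. Healthy muscle 1 and 2 were the highest of all 21 muscle arrays and healthy muscle 3 the lowest.

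The other genes lower in that fit were Col5a2 at -0.999 (adjusted p = 0.000523), Col3a1 at -0.97 (adjusted p = 0.00271), Col4a1 at -0.95 (adjusted p = 0.00173), Col6a1 at -0.53 (adjusted p = 0.0324), Col15a1 at -0.45 (adjusted p = 0.0337) and Col9a1, a fibril-associated chain of cartilage, at -1.59 (adjusted p = 0.0399). Col4a1 read 11.20, 11.08 and 10.10 in healthy and 10.03, 10.36 and 10.18 in macroangiopathy muscle, so that healthy 1 and 2 alone lay above the model. With all 3 healthy arrays Col1a1 was at -0.70 (SE 0.40, adjusted p = 0.21), Col3a1 at -0.61 (adjusted p = 0.0853) and Col4a1 at -0.60 (adjusted p = 0.0753), none of them called.

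Healthy muscle 1 and 2 shared their slide and scan day with rosiglitazone 2 and 3 and with no diabetic or macroangiopathy array. On that slide the rosiglitazone arrays read 10.37 and 9.89 for Col1a1, below both healthy arrays. When slides 1, 3 and 11 entered the fit as batches, 14 and 13 collagens were called in diabetic and macroangiopathy against healthy muscle, where 36.5% and 35% of all genes were. With slide as a random block 1 and 3 were called, against 11.9% and 16.9% of all genes, namely Col24a1 in both and Col23a1 and Col5a2 in macroangiopathy. With scan day as a block 3 and 5 were called, all lower, against 12.6% and 13%, and Col5a2 was the only one of them called without a block.

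Markers of other cell types differed between these groups too. All 6 tendon markers lay above 0 in either comparison, with 1 called higher, and their mean ran from 9.23 to 10.48 in healthy, 10.35 to 11.41 in diabetic and 10.30 to 11.10 in macroangiopathy muscle. All 6 adipocyte markers lay below 0, with 1 called lower, and their mean ran from 10.57 to 12.05, 10.13 to 10.77 and 9.70 to 10.94. All 4 macrophage markers lay below 0, with 3 and 2 called lower, and their mean ran from 8.22 to 9.23, 7.84 to 8.05 and 7.76 to 7.81. Among all genes 15.6% and 14.7% were called higher in these comparisons, and 10.8% and 10.2% lower. These marker counts include healthy muscle 3. The part of these markers in the collagen values was not tested.

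**Figure D4:**
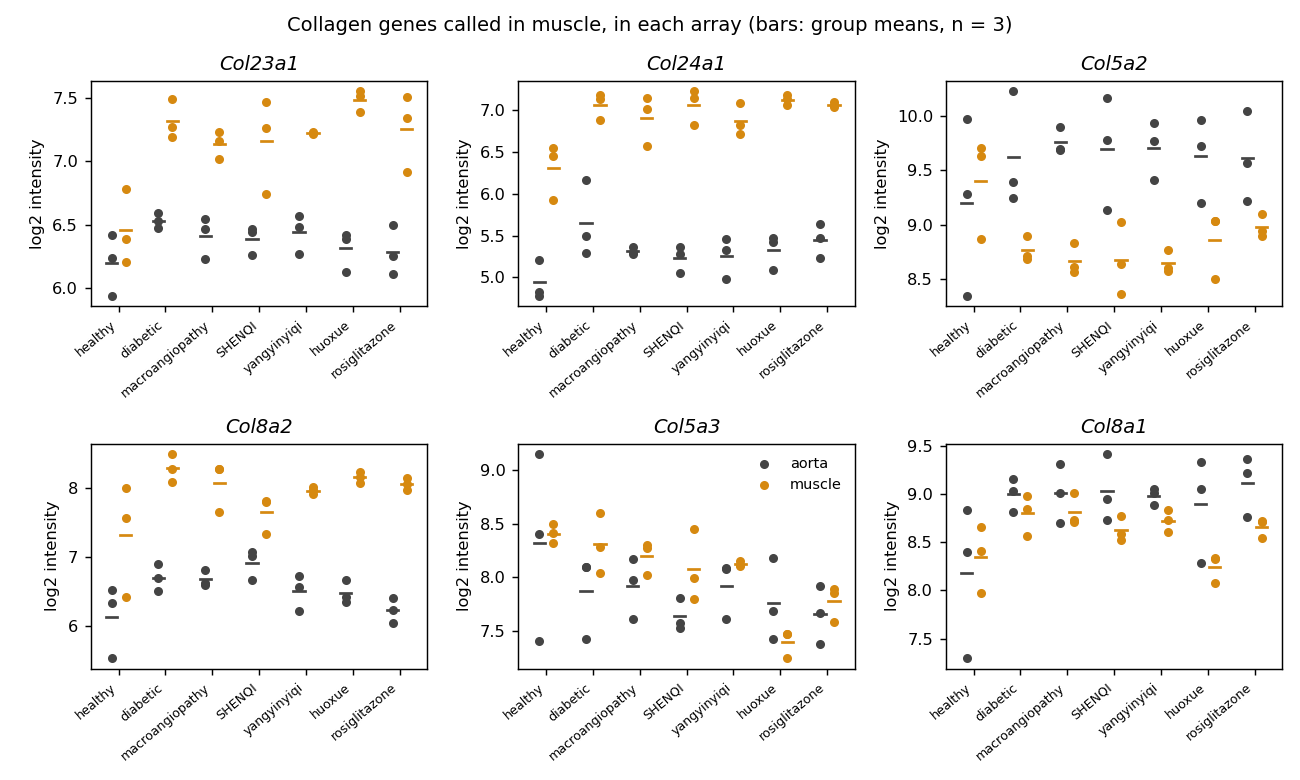
Log2 intensity (y axis) of Col23a1, Col24a1, Col5a2, Col8a2, Col5a3 and Col8a1 on each array by group (x axis), aorta in grey and muscle in orange, bars at group means of 3 arrays. Muscle Col23a1 is 6.21 to 6.78 in healthy and 7.02 or more in the diabetic and macroangiopathy groups, and muscle Col5a3 is lowest in the huoxue group, 7.24 to 7.47.

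Macroangiopathy and diabetic mice, which are of the same strain, differed in no called collagen. In aorta 0 of 37 and in muscle 0 of 35 were called by limma, and 0% of all genes were in either tissue. An unadjusted p under 0.05 was reached by 0 collagens in aorta, against 1.78% of all genes, and by 2 in muscle, both lower, against 3.68%, or 1.57% in that direction. In aorta the lowest p was that of Col4a5, at 6.0, 7.28 and 7.69 in diabetic and 7.81, 8.08 and 8.11 in macroangiopathy mice, a difference of 1.01 (SE 0.60, adjusted p = 1). Those groups did not overlap, but the diabetic arrays spread over more than the difference. Diabetic 1, the lowest, lay on slide 1 with the low healthy arrays of this gene. In muscle it was Col5a1, at 8.51, 8.57 and 8.69 against 8.07, 8.30 and 8.20, a difference of -0.40 (SE 0.16, adjusted p = 1). The second gene was Col14a1, at -0.36 (SE 0.15).

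The 4 treatments were each compared with the untreated model, and share its arrays. In aorta limma called 0 of 37 collagens under each treatment, with 0% of all genes called, and 0 of 37 were at an unadjusted p under 0.05, against 1.35%, 0.379%, 0.77% and 2.88% of all genes for SHENQI compound, yangyinyiqi, huoxue and rosiglitazone. The medians were -0.11, -0.01, -0.13 and -0.14. For Col1a1 the differences were 0.28, -0.21, -0.36 and -0.64 in that order, each with an SE of 0.63, and for Col18a1 they were -0.78, -0.17, -0.91 and -1.04, each with an SE of 0.81. Differences of about the size of these SEs were thus not detectable with 3 arrays a group.

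Values of the gene with the lowest p under each treatment show the same spread. Under SHENQI compound it was Col12a1, a fibril-associated collagen, at 6.43, 6.05 and 6.77 against 6.30, 6.04 and 5.97 in the model (a difference of 0.31, adjusted p = 1). Under yangyinyiqi it was Col11a2, at 6.49, 6.66 and 6.87 against 6.06, 6.63 and 6.53 (0.26, adjusted p = 1). Under huoxue it was Col28a1, at 5.53, 5.88 and 6.43 against 6.03, 6.85 and 6.09 (-0.37, adjusted p = 1). All 3 overlapped with the model. Under rosiglitazone it was Col8a2, at 6.24, 6.05 and 6.40 against 6.59, 6.82 and 6.62, where the groups did not overlap but the difference of -0.45 (SE 0.22, adjusted p = 1) was not called.

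In muscle SHENQI compound and yangyinyiqi gave no call and no unadjusted p under 0.05 in 35 collagens, against 0% called and 1.18% at that p among all genes under either. The lowest p were those of Col4a2 under SHENQI compound, at 9.05, 8.62 and 9.27 against 9.11, 9.45 and 9.33 (-0.32, adjusted p = 1), and Col2a1 under yangyinyiqi, at 6.12, 6.38 and 6.29 against 6.57, 6.69 and 6.23 (-0.23, adjusted p = 1). Both pairs of groups overlapped. 

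The huoxue group was the only treated group with called collagens, 3 of 35 in muscle against 17.7% of all genes, with 7 at an unadjusted p under 0.05 against 32.7%. Col5a3, a less common chain of type V collagen, read 8.27, 8.31 and 8.02 in the model and 7.47, 7.47 and 7.24 under huoxue. It fell by 0.81 (a difference of -0.81, SE 0.16, n = 3 a group, adjusted p = 0.00202 by limma), without overlap. Both of its probes went that way, -0.65 on the probe printed above, which was well above background on 9 of 21 muscle arrays, and -0.97 on the other, so on all 21.

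The other calls depended on the probe. Col8a1 read 8.73, 8.71 and 9.01 in the model and 8.07, 8.34 and 8.33 under huoxue, and was called at -0.57 (SE 0.15, adjusted p = 0.0151), from 0.22 on the brighter probe and -1.36 on the dimmer, which was well above background on 15 of 21 muscle arrays. Col4a6 read 6.45, 6.51 and 6.06 against 6.90, 6.85 and 6.56, and was called at 0.43 (SE 0.12, adjusted p = 0.0239), from -0.14, 0.35 and 1.07, the last on a probe well above background on no muscle array. The 3 huoxue muscle arrays lay on a slide that held no array of the model, so slide and treatment cannot be told apart.

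Under rosiglitazone 0 of 35 muscle collagens were called, against 5.51% of all genes, and 1 had an unadjusted p under 0.05, against 21.6%. It was Col5a3 again, at 7.89, 7.85 and 7.58 against 8.27, 8.31 and 8.02 in the model, lower on every array, with a difference of -0.42 (SE 0.16, adjusted p = 0.122). The slide of the huoxue arrays also held rosiglitazone 1. Huoxue and rosiglitazone were not tested against each other.

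Whether a group difference itself differed between tissues was tested as an interaction over 42 arrays. No collagen of 39 was called in any of the 7 comparisons, where the share of all genes called was 3.17% in macroangiopathy against healthy, 0.89% in diabetic against healthy, 0.13% under huoxue, 0.0124% under rosiglitazone and 0% in the other 3. In macroangiopathy against healthy 12 had an unadjusted p under 0.05, 10 of them higher in aorta than in muscle, against 18.2% of all genes, and the smallest adjusted p was 0.0967. In a fit of the 12 arrays of diabetic and healthy mice with tissue as a term, Col24a1 at 0.73 (SE 0.17, adjusted p = 0.0335) and Col23a1 at 0.59 (SE 0.15, adjusted p = 0.0436) were called, where 4.5% of all genes were, and no collagen was in the other comparisons fitted that way. Col24a1, which was not tested in aorta alone, was well above background there on 3 of 21 arrays. The 12-array fits took the aorta and muscle arrays of a group as independent. The labels do not state whether those arrays share mice, and if they do the p-values of these fits may be too small. These fits used all healthy arrays, healthy aorta 1 and healthy muscle 3 included.

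The machinery that makes collagen was read from a list of 46 symbols for hydroxylation, folding and export, propeptide processing, cross-linking and fibril-binding, of which 40 were on the array. In aorta 4 of 36 tested were called higher in diabetic and 9 in macroangiopathy mice, and none lower. Among all genes 3.43% and 6.37% were called in either direction, and 3.26% were called higher in macroangiopathy. Pcolce, the enhancer of propeptide removal from fibrillar chains, read 12.30, 12.96 and 13.32 in healthy, 15.03, 14.44 and 14.67 in diabetic and 14.66, 14.49 and 14.09 in macroangiopathy aorta. It rose by 1.86 (SE 0.34, adjusted p = 0.00727) and 1.55 (SE 0.34, adjusted p = 0.0162), and every KK/Ay array of these groups lay above every healthy one. Lum, a proteoglycan of the fibril surface, rose by 1.69 and 1.37, Ogn, of the same family, by 2.31 and 2.28, and Crtap, of the prolyl 3-hydroxylase complex, by 1.32 and 1.34.

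Without healthy aorta 1 these counts were 2 higher and 1 lower in diabetic aorta and 0 higher and 1 lower in macroangiopathy aorta. They are not set against a share of all genes, so they tell which genes were called and not whether the list stood out. Pcolce was still called in diabetic aorta, at 1.58 (adjusted p = 0.0289), with Lum at 1.18, while Serpinh1, the collagen chaperone HSP47, was lower at -1.31. In macroangiopathy aorta the gene called was P4ha1, a prolyl 4-hydroxylase subunit, at -0.91.

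In diabetic against healthy muscle 1 of 37 genes of the list was called higher and 4 lower, against 15.6% higher and 10.8% lower of all genes. In macroangiopathy 1 was higher and 7 lower, against 14.7% and 10.2%. Lox, the lysyl oxidase that cross-links fibrils, read 8.78, 8.76 and 9.01 in healthy muscle and 7.06 to 7.90 on all 18 other muscle arrays. Healthy muscle 3 lay with the other healthy arrays in this gene. Lox fell by 1.48 (a difference of -1.48, SE 0.19, adjusted p = 2.95e-05) in diabetic and by 1.34 (-1.34, SE 0.19, adjusted p = 8.71e-05) in macroangiopathy muscle, and was -1.26 in the latter without healthy muscle 3.

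Serpinh1 read 10.96, 11.16 and 9.62 in healthy, 9.55, 9.59 and 9.72 in diabetic and 9.23, 9.31 and 9.22 in macroangiopathy muscle. It fell by 0.96 (-0.96, SE 0.31, adjusted p = 0.0303) and 1.32 (-1.32, SE 0.31, adjusted p = 0.00501), and healthy muscle 1 and 2 alone stood clear of the rest. Also lower in both were Ppib, a cyclophilin of the endoplasmic reticulum, and Glt25d1, which adds galactose to collagen. Leprel4, of the hydroxylation step, was higher in both. Without healthy muscle 3 the counts were 3 higher and 7 lower in diabetic and 3 higher and 10 lower in macroangiopathy muscle. The shares of all genes called in those fits, given above with the collagens, were of a like size. Under huoxue Crtap rose by 0.49 and Pcolce2, a relative of Pcolce, fell by 0.93 (a difference of -0.93), and no gene of the list was called in macroangiopathy against diabetic mice or under the other treatments. The tissue difference was called for Pcolce in both comparisons with healthy mice, at 1.61 and 1.54, and for Fkbp10 and Crtap in macroangiopathy.

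Col17a1, the collagen of epidermal hemidesmosomes, was not tested, but single arrays carried it. In aorta it read 8.62 on rosiglitazone 1 and 4.80 to 5.76 on the other arrays, the next highest being huoxue 1. Krt5, a keratin of basal epidermis, read 15.27 and 10.30 on those arrays and at most 7.58 on the others, and Lor, of the cornified layer, 17.62 and 13.20. Col7a1, which anchors epidermis to dermis, read 10.19 on rosiglitazone aorta 1 and 6.76 to 8.93 on the other aorta arrays. On huoxue aorta 1 it read 8.70, below diabetic aorta 2 at 8.87 and yangyinyiqi aorta 3 at 8.93. Across the muscle arrays Col7a1 read 9.06 to 10.46, with keratins high or low.

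Muscle showed high Col17a1 beside high Krt5 on more arrays. Col17a1 read 8.22 on diabetic 2, 7.88 on healthy 3, 7.20 on macroangiopathy 2 and 7.11 on healthy 1, where Krt5 read 13.91, 14.43, 13.36 and 12.01. It read 6.66 on macroangiopathy 1, 6.52 on huoxue 1 and 6.42 on yangyinyiqi 1, with Krt5 at 11.38, 10.27 and 12.17, and 5.35 to 6.20 on the other 14 arrays. The keratins were chosen after their values were seen, and their part in the Col17a1 and Col7a1 values was not tested.

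**Figure D5:**
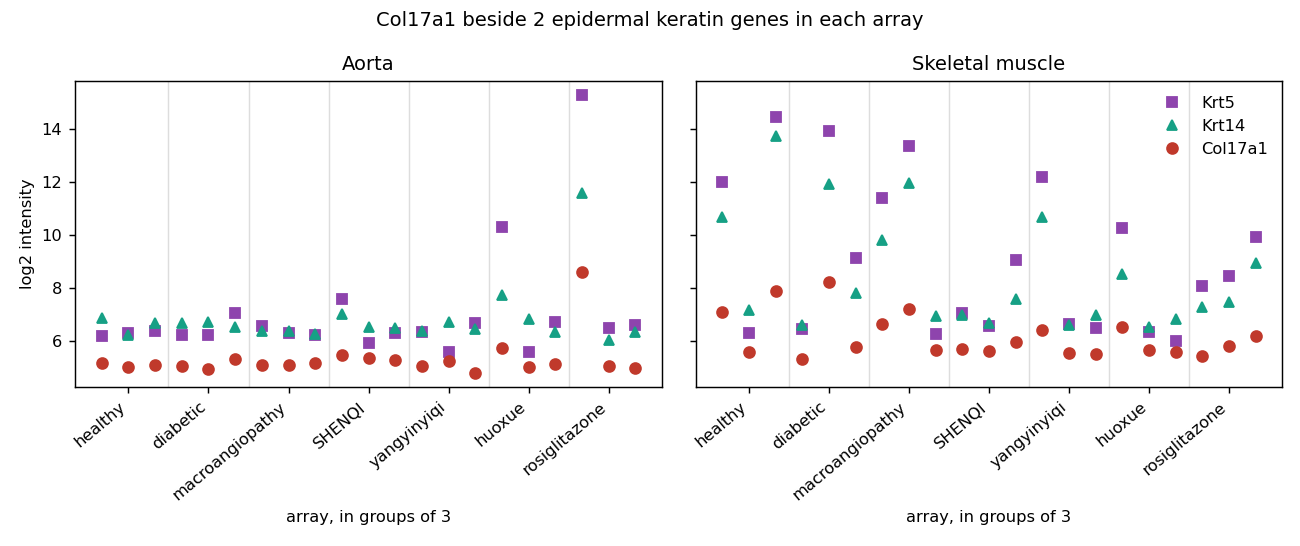
Log2 intensity (y axis) of Col17a1, Krt5 and Krt14 on each array (x axis, 3 a group), aorta left and muscle right. Col17a1 is high on the arrays where the keratins are, as on rosiglitazone aorta 1, where it reads 8.62 beside Krt5 at 15.27.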

How the data were processed

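Aorta and skeletal muscle RNA of 7 groups of 3 mice was hybridised to 42 single-colour Agilent arrays, and the sources used here do not state whether a sample was 1 animal or a pool. The deposited scanner files hold raw spot intensity and local background intensity from Agilent Feature Extraction 10.7.3.1 per the file headers, with probe positions on mm9, and 8 of the 42 files name genes. The authors also deposited a table of quantile-normalized log2 values of 41267 probes, whose baseline is not stated, used here only as an alternative. Of 45018 spots, 1639 control spots were removed after normexp correction (offset 0) of the median signal, values were log2-transformed and quantile-normalized over 42 arrays, irregular spots were masked, and spots, probes and genes were averaged in turn. limma 3.58.1 in R 4.3.3 fitted the 21 arrays of each tissue, or 42 for aorta against muscle and for tissue differences, with Benjamini-Hochberg adjustment over all genes tested and a threshold of 0.05. The methods' own threshold was an unadjusted p of that size, so counts at it are given too.

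The genes given array by array were the called collagens (at most 6 a comparison, by adjusted p), the main chains of types I, III, IV, VI, XV and XVIII where a result turns on them, the lowest p where nothing was called, and the 5 largest differences each way between tissues. Members, gene lists and tests were chosen with earlier results of these data known. Slides and scan days were read from the file headers. Scan day as a block and the keratin list were chosen after seeing the data. Alternatives were changed one at a time, and the fits were tested on simulated data. Promoters came from RefSeq (GRCm38.p6), and all 43 symbols matched RefSeq genes.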

Additional observations from a re-analysis of the deposited data

How the results depend on the processing

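Counts of called collagens in macroangiopathy against diabetic mice, under every treatment in aorta, and under SHENQI compound and yangyinyiqi in muscle stayed at 0 under each alternative run, and the counts below moved. The share of all genes called in the same fit is given in brackets for the larger moves. The cause was not tested. In macroangiopathy against healthy aorta (1 called) the count was 0 with normexp offset 50, the processed signal, no filter on dim probes, slide as a random block, slides 1, 3 and 11 as batches or left out, the authors' value table, or scan day as a block, 2 with the brightest probe, 12 with all 42 arrays in 1 fit (19.1% of all genes), and 0 to 11 with 1 array left out (11 without healthy aorta 2, where 13.5% of all genes were called, 0 without healthy aorta 1 or any macroangiopathy array). In diabetic against healthy aorta (0) it was 4 with 42 arrays (12.4%) and 0 to 2 with 1 left out (2 without healthy 2, 1 without healthy 3). In diabetic against healthy muscle (8) it was 3 with 42 arrays (8.94%) or scan day (12.6%), 1 with the random block (11.9%), 14 and 16 with those 3 slides as batches or left out (36.5% and 40.1%), 5 with the authors' table, and 5 to 8 with 1 array left out (5 without diabetic 1 or 3). In macroangiopathy against healthy muscle (5) it was 3 with offset 50, the brightest probe or the random block (16.9%), 2 with 42 arrays (8.01%), 13 and 14 with those slides as batches or left out (35% and 38.7%), and 1 to 8 with 1 array left out (1 without macroangiopathy 1, 8 without healthy 2 or 3). Under huoxue in muscle (3) it was 1 with offset 50 (19.5%) or the random block (5.01%), 0 with 42 arrays (4.77%), 12 with those slides as batches (16.6%), 6 with the authors' table (18.7%), 5 with scan day (28.9%), and 1 to 3 with 1 array left out (1 without macroangiopathy 3 or huoxue 1). Under rosiglitazone in muscle (0) it was 9 with those slides as batches (15.1%) and 1 with the processed signal, no filter, the authors' table or scan day. Between tissues (32) it was 20 of 25 tested with the stricter filter (79.5%) and 18 with scan day (24.7%). For tissue differences (0) it was 3 in diabetic against healthy without those slides and 0 to 1 with 1 array left out (1 without healthy aorta 1), and in macroangiopathy against healthy 1 with the processed signal or scan day, 3 without those slides, and 0 to 7 with 1 array left out (7 without healthy aorta 2, 1 without healthy aorta 1 or healthy muscle 3).

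The median difference of the collagens in diabetic against healthy aorta (0.33) was -0.07 without those slides and within scan day 2, and 0.64 within slide 1 and scan day 4. In diabetic against healthy muscle (0.21) it was 0.42 with the processed signal, 0.53 with those slides as batches or left out, -0.14 with scan day, and -0.01 to 0.36 with 1 array left out (without healthy 3 and healthy 2). In macroangiopathy against healthy muscle (0.09) it was 0.31 and 0.36 likewise, -0.26 with scan day, and -0.11 to 0.22 with 1 array left out (-0.11 without healthy 3). Under huoxue in muscle (0.12) it was -0.62 with those slides as batches, and under rosiglitazone (0.10) -0.09 with the processed signal, -0.07 with the random block and -0.55 with those slides. With the brightest probe, Col8a1 under huoxue turned to 0.22 and Col2a1 in macroangiopathy against healthy muscle to -0.02.

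Same-numbered arrays of different groups had a median correlation of 0.00707 in aorta (-0.599 to 0.675 over 63 pairs) and -0.0276 in muscle (-0.546 to 0.603). Between the tissues the median was 0.0114 for arrays of the same number (-0.363 to 0.185 over 21 pairs) and 0.00344 for different numbers. Correlations spread this widely cannot decide whether a number marks the same mouse in both tissues. With the replicate block the counts were 4 in macroangiopathy against healthy aorta (8.17% of all genes), 7 and 5 in diabetic and macroangiopathy against healthy muscle (24.8% and 23.3%), 3 under huoxue in muscle (16.3%), 32 between tissues (76.9%) and 0 in the other within-tissue comparisons. Probes near background and 3 arrays a group limit what can be called.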

Other observations

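Other cell types than those of the named tissue were read through marker lists on the same arrays, and none of these lists was weighed against the collagen values. In aorta, tendon markers were above 0 in 4 of 5 in macroangiopathy against healthy, with 2 called higher. Among all genes 3.26% were called higher there. Skeletal muscle fibre markers were above 0 in 7 of 7 in diabetic against healthy, with 0 called by limma, against 3.43% of all genes. Cardiac muscle markers were above 0 in 5 of 6 in diabetic and in 0 of 6 in macroangiopathy against healthy, with 0 called by limma in either. Myl7, an atrial myosin light chain, read 6.18 to 15.24 over the aorta arrays. Scx, a transcription factor of tendon cells, read 13.38 on healthy muscle 3 and 10.21 to 11.89 on the other muscle arrays, while Tnmd, a membrane protein of mature tendon, read 6.07 there and 8.10 or more elsewhere. Col1a1, Col22a1 and Fmod, a proteoglycan of tendon fibrils, were each lowest there of the muscle arrays, at 9.32, 7.58 and 9.0.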
